A study of Mus musculus with 12 samples.

Results

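The replication-dependent histone genes of the mouse were examined as places where meiotic recombination starts. They were taken as all protein-coding genes of the RefSeq annotation of GRCm38 whose name begins with Hist1h, Hist2h, Hist3h or Hist4h, and 67 of 21627 protein-coding genes met this rule. All 67 were found through the older names that the annotation keeps as synonyms, and they are called by these names here. DMC1, the meiotic recombinase, coats the single-stranded DNA beside a double-strand break. DMC1-SSDS recovers that DNA by chromatin immunoprecipitation and enrichment of single strands, so that each listed interval, a hotspot, marks where breaks form. Of the 12 samples of the study, 4 were DMC1-SSDS and are described here. They came from whole testis of adult males, 2 of the strain C57BL/6JCrl (wild type B6) and 2 with the allele Ankrd31 tm1Atot (knockout). ANKRD31 is a component of the machinery that places and times these breaks. The labels do not name the genetic background of the knockout animals. If it is not that of the wild type, strain and genotype cannot be told apart.

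Each genotype had 1 deposited hotspot list. The wild type list has 13480 hotspots with 4376692 reads, and the knockout list 22034 with 4203380. The sources used here do not say whether both animals of a genotype are in its list. A difference between the lists therefore has no replicate check, and no p-value was computed. The strength of a hotspot is its read count minus an estimated background, with a median of 152 in the wild type list and 105 in the knockout list. A hotspot below the calling threshold is missing from a list, and the lowest listed strengths were 18 and 16. Knockout-only hotspots are those that no wild type hotspot overlaps by even 1 bp.

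Replication-dependent histone genes supply the histones that package DNA as it is copied in S phase. They are short genes without introns, lie in clusters, and give mRNAs that end in a stem-loop in place of a poly(A) tail. Many H2A and H2B genes sit head to head and share the DNA between them as a common promoter. The testis adds its own members: Hist1h2aa and Hist1h2ba encode the variants TH2A and TH2B, and Hist1h1t encodes the linker histone H1t of spermatocytes. In B6 mice most hotspots are placed by PRDM9 away from promoters, and breaks at promoters are known from mice in which that placement fails. The genes fell in 5 places. On chromosome 13, 23 genes lay in a first sub-cluster of 328 kb and 31 in a second of 404 kb. Another 10 lay within 50.3 kb of chromosome 3, 2 on chromosome 11 (Hist3h2a and Hist3h2ba) and 1 on chromosome 6 (Hist4h4). By class there were 6 genes of the linker histone H1, 18 of H2A, 18 of H2B, 12 of H3 and 13 of H4.

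The sequences just upstream of some of these genes are shown first, so that genes with and without a knockout hotspot can be set side by side. They are the 120 bases before the annotated start site from RefSeq (GRCm38.p6). Capitals mark the motifs TATAAA (the letters of a TATA box), CCAAT and GGGCGG on either strand and at any position. The first 2 belong to the H4 genes with the strongest hotspots among H4 genes, and they are near copies of each other. Their windows are offset by 14 bases, and that of Hist1h4j stops inside the stretch that reads TATAAA in Hist1h4k. Hist1h4i is an H4 gene with no hotspot. Hist1h1a, which encodes the linker histone H1.1, had a hotspot and the testis gene Hist1h1t had none. Hist1h3h is an example of the H3 genes, none of which had one. It is not typical of them all: TATAAA was present within 250 bases upstream at 4 of 10 H3 start sites.
Hist1h4j, chr13:21734914-21735033, plus strand: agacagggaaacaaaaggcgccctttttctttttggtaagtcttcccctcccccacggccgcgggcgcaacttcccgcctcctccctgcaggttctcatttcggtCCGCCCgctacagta
Hist1h4k, chr13:21750554-21750673, minus strand: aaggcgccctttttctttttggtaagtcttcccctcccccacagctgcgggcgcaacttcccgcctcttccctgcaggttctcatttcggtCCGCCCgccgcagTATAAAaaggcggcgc
Hist1h4i, chr13:22041363-22041482, minus strand: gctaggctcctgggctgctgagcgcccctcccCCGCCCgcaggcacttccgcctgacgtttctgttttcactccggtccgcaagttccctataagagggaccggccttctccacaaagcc
Hist1h1a, chr13:23763548-23763667, plus strand: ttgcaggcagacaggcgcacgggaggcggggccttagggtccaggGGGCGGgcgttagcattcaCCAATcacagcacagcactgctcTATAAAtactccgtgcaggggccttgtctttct
Hist1h1t, chr13:23695691-23695810, plus strand: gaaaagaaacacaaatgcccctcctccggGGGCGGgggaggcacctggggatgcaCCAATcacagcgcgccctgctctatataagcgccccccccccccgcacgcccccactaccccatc
Hist1h3h, chr13:21717508-21717627, plus strand: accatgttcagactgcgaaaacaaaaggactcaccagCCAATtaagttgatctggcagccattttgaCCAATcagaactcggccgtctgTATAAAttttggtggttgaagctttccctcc

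The TH2B gene Hist1h2ba and the TH2A gene Hist1h2aa face away from each other with 280 bp between them, and 1 knockout hotspot covered both. The 250 bases upstream of Hist1h2ba make up most of this shared promoter. They hold CCAAT in both orientations, the letters TATAAA and the octamer ATTTGCAT, an element known from H2B promoters.
Hist1h2ba, chr13:23934157-23934406, minus strand: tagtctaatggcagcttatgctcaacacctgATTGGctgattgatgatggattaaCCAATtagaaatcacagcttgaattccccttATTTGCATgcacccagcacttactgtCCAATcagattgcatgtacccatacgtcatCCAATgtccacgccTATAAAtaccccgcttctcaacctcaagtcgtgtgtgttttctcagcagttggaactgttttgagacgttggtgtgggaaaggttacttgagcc

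The first comparison asked which histone genes carried a hotspot at an end in either genotype, with the hotspot centre within 1 kb of the start or end of the gene. In the wild type 0 of 67 genes did, against 1.99% of all protein-coding genes, a share so low that 67 genes cannot show whether they fall below it. In the knockout 16 of 67 did (23.9%, exact 95% binomial interval 14.3 to 35.9), against 27.1% of all protein-coding genes, and 22.1% of those on chromosome 13. All 16 had a knockout-only hotspot, as did 25.5% of protein-coding genes and 20.6% of those on chromosome 13. Of the chromosome 13 genes, 2.65% had a wild type hotspot. The share of histone genes was thus near the background of the whole annotation. The intervals cover counting error only, and neighbouring genes that share a hotspot are not independent, so the 16 genes rested on 11 distinct hotspots. The gene nearest to the limit on the inside was Hist1h2ap, at 800 bp from a hotspot centre, and the nearest outside it was Hist1h2bq at 1384 bp.

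Histone genes are much shorter than most genes, with a median length of 492 bp, and 61 of 67 are no longer than 1 kb. Among all 1441 protein-coding genes of that length, 4.02% had a knockout hotspot at an end. The histone genes made up 14 of these. The other 1380 short genes had 44 with a hotspot (3.19%), and 72.5% of them were olfactory, vomeronasal, trace amine or taste receptor genes. Outside those receptor families 33 of 379 short genes had one. Since the windows of neighbouring histone genes overlap, the hotspots were also counted per length of DNA examined. The windows at histone gene ends covered 136 kb and held 80.9 knockout hotspots per Mb, against 67.5 per Mb at the ends of all protein-coding genes. For the wild type the same values were 0 and 5.17 per Mb. The knockout value of the histone genes rests on 11 hotspots, and at 5.17 per Mb few wild type hotspots would fall in 136 kb. Neither difference is read as a trait of histone genes.

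All 16 genes lay on chromosome 13, where 16 of 54 members had a knockout hotspot. In the first sub-cluster 8 of 23 genes did, on 5 hotspots with strengths of 190 to 367. In the second, 8 of 31 did, on 6 hotspots with strengths of 132 to 315. On chromosome 3, 0 of 10 genes had one (exact 95% interval 0 to 30.8%), against 30.7% of the protein-coding genes of that chromosome, and the nearest knockout hotspot was 38817 bp or more from each of them. Among these genes, Hist2h3c2 and Hist2h3c1 matched at 99.6% of 285 aligned reference bases around their start sites. Hist2h2aa2 and Hist2h2aa1 matched at 95.8% of 260. How reads from such copies were placed is not stated, so the absence of a hotspot at these copies is uncertain. The pair on chromosome 11 and Hist4h4 on chromosome 6 had none either, with the nearest knockout hotspot at 6912 bp from Hist3h2a, 10021 bp from Hist3h2ba and 9700 bp from Hist4h4. Whether the places differ was not tested.

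**Figure D1:**
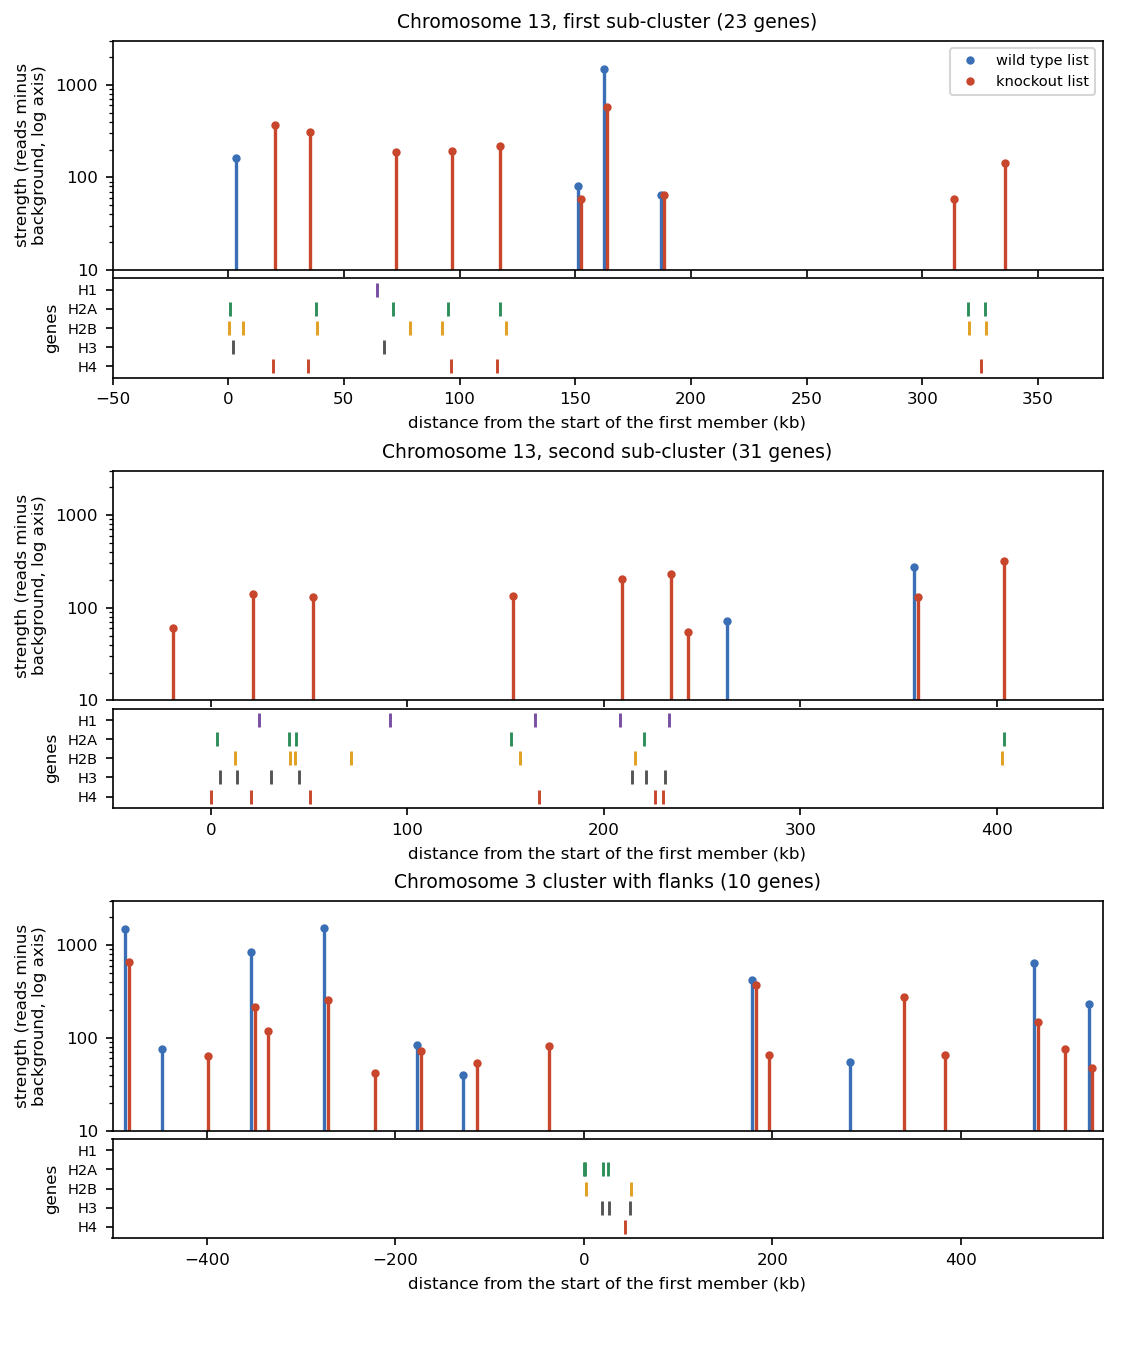
Hotspot strength (reads minus background, log axis) along the histone gene clusters, by distance in kb from the first gene, for the wild type list (blue) and the knockout list (red), with the genes of each class as ticks below. In the sub-clusters of chromosome 13 the red stems over the gene ticks have no blue partner, while over the 10 genes of chromosome 3 there is neither.

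The H4 genes encode the core histone H4, whose protein sequence is the same from nearly all copies. Of 13 H4 genes 6 had a knockout hotspot at an end (46.2%, 19.2 to 74.9), on 6 hotspots. The shares of all protein-coding genes (27.1%) and of those on chromosome 13 (22.1%) lie inside that interval. The hotspot at Hist1h4j (H4c11, chromosome 13 from 21735034 to 21735456) had 374 reads and a strength of 367 in the knockout (95% Poisson counting interval 330 to 407). It ranked 2396 of 22034 in the knockout list and exceeded 97.5% of the autosomal knockout hotspots at gene ends. No wild type hotspot overlapped it. The hotspot at Hist1h4k (H4c12) had a strength of 309 (275 to 346). Those at Hist1h4f (H4c6) and Hist1h4d (H4c4) in the second sub-cluster were weaker, at 139 (116 to 165) and 132 (110 to 157), beyond the counting error of the first pair. In these 4 genes the hotspot centre lay inside the gene, 206 to 326 bp after its start site, and the hotspot touched no other histone gene.

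The remaining H4 genes with a hotspot, Hist1h4m and Hist1h4n, lie 20451 bp apart, each beside an H2A and an H2B gene, in mirror-image order. The hotspot at Hist1h4m (strength 192) also reached the H2A gene Hist1h2ao, and that at Hist1h4n (218) reached the H2A gene Hist1h2ap. They were 3958 and 4108 bp wide, where the median knockout hotspot was 1596 bp and the widest 4644 bp. The reference sequences around the start sites of these genes matched at 99.7% of 299 aligned bases for Hist1h4m and Hist1h4n and at 100% of 200 for Hist1h2ao and Hist1h2ap. Those of Hist1h4j and Hist1h4k matched at 95.8% of 286 bases. Reads from such copies can be assigned to either, so the split of strength within each of these pairs is uncertain. With near-identical copies counted once, 13 of 61 genes (21.3%) had a knockout hotspot, on 9 hotspots. The H4 genes without a hotspot on chromosome 13 were Hist1h4i, Hist1h4h, Hist1h4c, Hist1h4b and Hist1h4a.

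H2A and H2B are the core histones that join as a dimer. Of 18 H2A genes 5 had a knockout hotspot (27.8%, 9.69 to 53.5) and of 18 H2B genes 3 (16.7%, 3.58 to 41.4), against 27.1% of all protein-coding genes, a share inside both intervals. There were 12 pairs of neighbouring H2A and H2B genes with at most 500 bp between them, and in 5 of these pairs at least 1 gene had a hotspot at an end. The 27.1% is a share of single genes, and no share was computed for pairs of other genes. The strongest was the testis pair Hist1h2ba and Hist1h2aa, whose hotspot had 363 reads and a strength of 315 (279 to 354) and lay from 23932534 to 23935406. Its centre was 186 bp inside Hist1h2ba. The hotspot of Hist1h2an and Hist1h2bp had a strength of 190 (163 to 220) and was centred 3 bp from the start site of Hist1h2an. That of Hist1h2ac and Hist1h2bc had 133 (110 to 159), centred 51 bp upstream of the start of Hist1h2ac. In the other 2 pairs, Hist1h2bq with Hist1h2ao and Hist1h2ap with Hist1h2br, only the H2A gene met the rule, through the wide hotspots that also hold Hist1h4m and Hist1h4n. Hist1h2bq and Hist1h2br matched at 100% of 300 aligned bases around their start sites, so the limit on read placement applies to them too. The 7 pairs with none included Hist1h2ag with Hist1h2bj and Hist1h2bf with Hist1h2ad.

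The linker histone genes encode the H1 proteins bound where DNA enters and leaves the nucleosome. Of these 6 genes 2 had a knockout hotspot at an end (33.3%, 4.33 to 77.7), against 27.1% of all protein-coding genes. At Hist1h1a the strength was 233 (203 to 266) and at Hist1h1c, the gene of H1.2, it was 204 (176 to 235). Their intervals overlapped, so these strengths were alike within counting error. The testis linker gene Hist1h1t had none, with the nearest knockout hotspot 11801 bp away, and neither had Hist1h1b, Hist1h1d or Hist1h1e. Of 12 genes for the core histone H3, 0 had a hotspot (exact 95% interval 0 to 26.5%). The share of all protein-coding genes, 27.1%, lies just above that interval. On chromosome 13, 0 of 9 H3 genes had one (0 to 33.6), and the 22.1% of all genes there lies inside. The 12 include the near copies Hist2h3c2 and Hist2h3c1, which the interval counts as separate genes. With so narrow a margin, no lower share of H3 genes is drawn from it. The limit on read placement applies here too. The H3 gene closest to a hotspot was Hist1h3a, 1872 bp from the centre of the hotspot at Hist1h1a. The next closest was Hist1h3i, 3848 bp from the hotspot at Hist1h2an. After it came Hist1h3d, 5596 bp from that at Hist1h4d, and Hist1h3c, 5841 bp from that at Hist1h1c. The classes were not tested against each other, and the intervals of all 5 overlap.

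**Figure D2:**
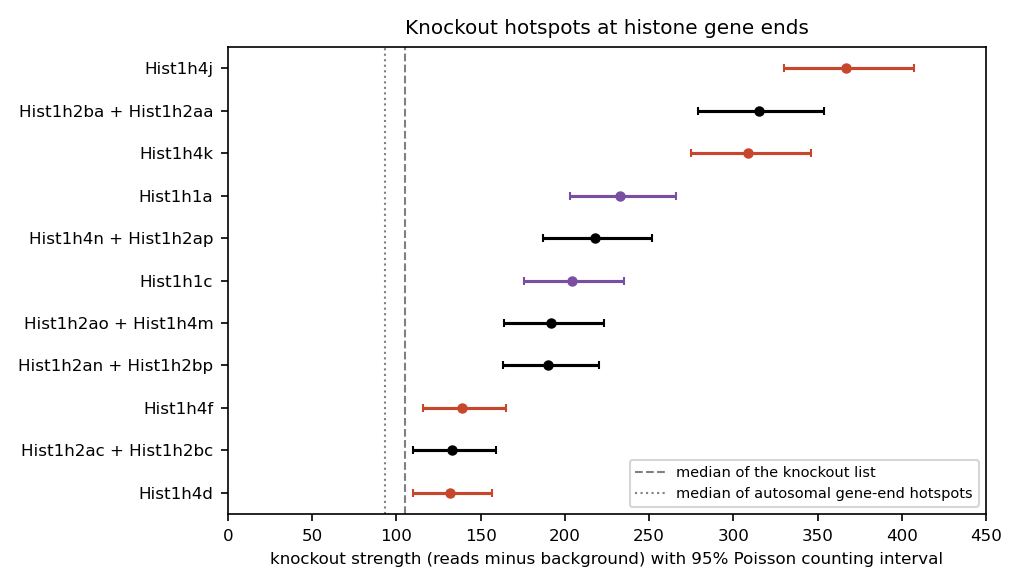
Strength of each of the 11 knockout hotspots at histone gene ends with its 95% Poisson counting interval. Red marks H4 genes, purple H1 genes and black hotspots shared by genes of different classes. All 11 lie above the median of the knockout list (105) and the median of autosomal gene-end hotspots (93).

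In strength the 11 hotspots were in the upper part of the knockout list, between 132 and 367 with a median of 204. The median was 105 for the whole list and 93 for the 4854 autosomal knockout hotspots at ends of protein-coding genes. The wild type list reached down to a strength of 26 on chromosome 13, where its median was 126. The lists are not scaled to each other, so these values do not show whether hotspots of such strength would have been listed in the wild type. The nearest wild type hotspot was 15043 to 243354 bp away from each of the 16 genes.

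The rule itself keeps the centres of these hotspots near such short genes, so their distance from the start site is given as a description. For 15 genes the reference gives a start site, and the distance from it to the hotspot centre was 3 to 1251 bp, with a median of 243 bp. Over all protein-coding genes with a knockout hotspot at an end this median was 146 bp, over 4852 pairs of gene and hotspot. The largest distances, 1216 and 1251 bp, belonged to Hist1h2ao and Hist1h2ap, whose hotspots also span an H4 gene. Because histone genes are short, a hotspot of 1498 bp or more covered the gene from before its start to beyond its end in each of the 4 H4 genes that stood alone and in both H1 genes. Which end was the target cannot be told apart at this width.

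**Figure D3:**
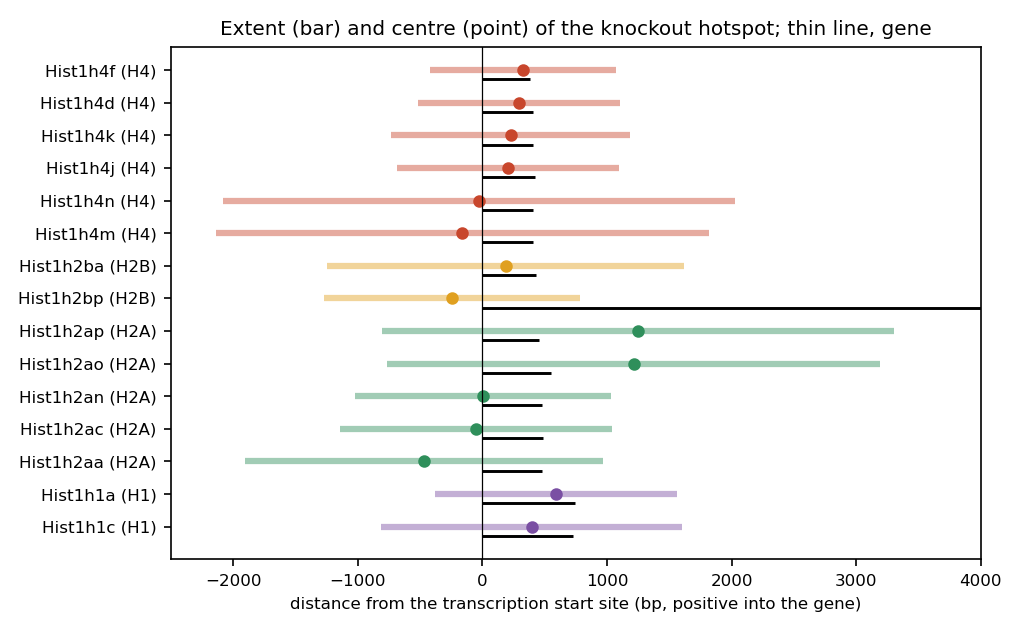
Position of the knockout hotspot relative to the transcription start site (bp, positive into the gene) for the 15 genes with a start site in the reference. Bars are hotspots, points their centres and thin lines the genes (that of Hist1h2bp runs beyond the axis); the centres lie between 467 bp before and 1251 bp after the start site.

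The upstream sequences of the histone genes were compared with those of other genes. Of 67 genes 62 had an entry, with 63 start sites. Within 250 bases upstream, TATAAA on either strand was present at 46.0% of histone start sites and 11.7% of the 21044 start sites of all protein-coding genes. CCAAT was present at 82.5% and 35.6%, ATTTGCAT at 22.2% and 1.59%, and GGGCGG at 31.7% and 43.0%. TATAAA was present at 11 of the 15 start sites of genes with a knockout hotspot and 18 of the 48 without. Over all protein-coding genes the order was the other way, with 6.04% where a knockout hotspot was at an end and 13.9% where none was. A match counts at any place in the window and on either strand, so it need not be a TATA box of that gene. The windows of head-to-head genes overlap and copies repeat, so these start sites are not independent, and the difference was not tested.

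Histone promoters with hotspots were also poorer in G and C than is usual for knockout hotspots at gene ends. Their median GC content was 45.6% with 12 CpG, against 61.6% and 17 CpG for all protein-coding start sites with a knockout hotspot. Histone start sites without a hotspot had 43.0% and 9 CpG. The element GGTCCG, part of a sequence known from H4 promoters and chosen here after the sequences had been seen, was present upstream of 9 of 12 H4 genes with an entry. It was there in 6 of the 6 with a hotspot and 3 of the 6 without, and in 8.5% of all protein-coding start sites. The 6 with a hotspot include the near copies Hist1h4j with Hist1h4k and Hist1h4m with Hist1h4n. An element chosen from these same sequences cannot be tested on them, so no link with hotspots is drawn. These matches are letters in a window and not evidence of binding.

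Next, all hotspots within 500 kb of the clusters were described. Around chromosome 13 the window spanned 3.22 Mb, with 17 wild type hotspots (29.7 kb covered, mean strength 266) and 29 in the knockout (55.4 kb, mean 171). This was 5.28 and 9.01 per Mb, against 6.23 and 7.42 per Mb from the first to the last protein-coding gene of the chromosome. Between the first and last histone gene the knockout list had 22 hotspots. Of these, 11 were the hotspots at histone gene ends, 7 were shared with the wild type and 4 were other knockout-only hotspots. The same stretch holds 50 other protein-coding genes, 36 of them vomeronasal receptors of the Vmn1r family, which detect pheromones. Only Vmn1r196 (261) and Vmn1r204 (72) had a knockout hotspot at an end, both shared with the wild type, and 0 of the 14 genes outside that family did. Of all protein-coding genes of chromosome 13, 22.1% had a knockout hotspot at an end and 20.6% a knockout-only one. In this stretch the knockout-only hotspots at ends of protein-coding genes were the 11 at histone genes. With so few genes outside the receptor family, no difference between histone genes and their neighbours can be drawn.

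The wild type list had 11 hotspots between the first and last histone gene of chromosome 13, with none centred within 1 kb of the end of a histone gene. The strongest, from 21877695 to 21880027 and 41331 bp from Hist1h2br, had 1470 in the wild type list against 576 in the knockout list. To compare lists, each strength was scaled by the median that autosomal shared hotspots had in its own list (182 and 151), which gives its relative strength. On that scale this hotspot was 2.12-fold lower in the knockout. The hotspot at Vmn1r196 had 608 against 261, and one near Vmn1r197 had 593 against 256. One inside Slc17a1, a phosphate transporter gene, had 273 against 129. The remaining wild type hotspots between the first and last histone gene were weak: 80 near Hist1h2br, 72 near Trim38, 64 near Zfp184, 46 at Vmn1r193, 45 at Vmn1r204 and 32 near Vmn1r213. A wild-type-only hotspot of strength 164 (139 to 192) lay from 21719134 to 21720848 between Hist1h3h and Hist1h2bm, with its centre 1876 bp from Hist1h3h. It was the wild type hotspot closest to any histone gene.

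In the flanks of chromosome 13, wild type hotspots lay inside Cmah, the gene of a sialic acid hydroxylase (455 against 272), and inside Carmil1, a regulator of actin filament capping (221, wild-type-only, and 195 against 108). The only knockout-only hotspots of these flanks lay at the ends of the zinc finger genes Zscan12 (78) and Zkscan3 (52). Over the whole window 12 hotspots were shared, and their log2 ratio of knockout to wild type relative strength had a median of -0.32 and ranged from -1.08 to 1.15. The 567 shared hotspots of chromosome 13 had a median of 0.02. The 5 with the highest wild type strength, 273 to 1470, were all lower in the knockout, and the 5 that were higher had wild type strengths of 45 to 81.

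The chromosome 3 cluster itself held no hotspot of either list from its first gene, Hist2h2ab, to its last, Hist2h2bb. The window of 1.05 Mb around it had 10 wild type hotspots (18.2 kb covered, mean strength 540) and 16 in the knockout (26.6 kb, mean 163), or 9.52 and 15.2 per Mb, against 4.53 and 7.48 over the chromosome counted likewise. The knockout-only hotspots there included ends of 8 of 32 neighbouring protein-coding genes. The strongest was at Txnip, which encodes a thioredoxin-binding protein (273, 240 to 309), followed by the circadian repressor gene Ciart (118) and the synaptic vesicle gene Sv2a (82). The hotspot at Sv2a was the closest to the cluster. Both the count of neighbours and the 0 of 10 histone genes stand against 30.7% of the protein-coding genes of chromosome 3, and the difference between them was not tested. The 10 include the near-identical copies named above, where the absence of a hotspot is uncertain.

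Of the 7 shared hotspots around the chromosome 3 cluster, 5 had a lower relative strength in the knockout list. The 7 had a median log2 ratio of -1.70, with a range from -2.29 to 0.09, and 4 were over 2-fold lower. Over chromosome 3 as a whole the median was 0.03 and 15.8% were over 2-fold lower. The strongest lay inside Anp32e, the gene of a chaperone that removes the variant H2A.Z, with 1521 (1444 to 1601) in the wild type list and 258 (227 to 292) in the knockout list, 4.89-fold lower in relative strength. Next was a hotspot inside Ecm1, which encodes an extracellular matrix protein, with 1483 and 660. That inside Mrps21, a mitochondrial ribosomal protein gene, had 843 and 215, and that inside Pias3, an inhibitor of STAT3 signalling, had 639 and 150. The hotspot inside Rnf115 had 233 and 47. Those inside Vps45 (84 and 73) and near BC107364 (424 and 373) were close to equal in relative strength. Strong wild type hotspots were lower in the knockout elsewhere too: of the 2155 autosomal shared hotspots in the strongest 20% of the wild type, 38.8% were over 2-fold lower with a median of -0.73. The window had 4 hotspots of that strength, with a median of -1.76, and 3 were over 2-fold lower. With 4 hotspots, no difference from the others can be drawn.

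**Figure D4:**
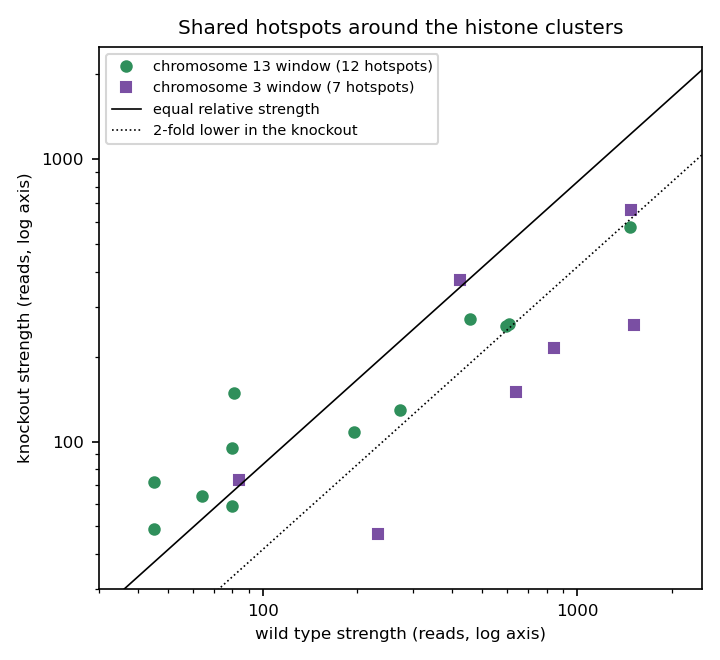
Strength in the wild type against strength in the knockout (reads minus background, both axes log) for the 12 shared hotspots around the chromosome 13 cluster and the 7 around the chromosome 3 cluster. On the solid line relative strength is equal, on the dotted line it is 2-fold lower in the knockout; 4 squares of chromosome 3 and 1 point of chromosome 13 lie below the dotted line.

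Genes that act with the replication-dependent histones were set beside them. Of 29 genes for transcription of these histones and processing of their mRNAs, 17 had a knockout hotspot at an end (58.6%, 38.9 to 76.5) and 0 a wild type hotspot, against 27.1% and 1.99% of all protein-coding genes. Npat, the coactivator dedicated to histone genes, had a strength of 97, Slbp, which binds the stem-loop of histone mRNAs, 89, and Lsm11 of the U7 particle that cuts these mRNAs 202. Casp8ap2, whose product is needed for histone mRNA processing, had 253, and Cstf2, a cleavage factor gene on X, had 726. The nuclease gene Cpsf3 (38) and the scaffold gene Sympk (63) were weaker, and Lsm10, Hinfp, Eri1 and Ncbp1 had none. All 17 were knockout-only. The list was chosen with earlier results of these data known. Its share above that of all genes was not tested, and no enrichment is drawn from it.

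Of 20 genes for replacement and other variant histones, outside the histone genes examined above, 7 had a knockout hotspot (35.0%, 15.4 to 59.2). They were H2afz (377) and H2afv (268), which encode H2A.Z, the H3.3 gene H3f3a (214), the DNA damage variant gene H2afx (117), H2afb3 on X (116), H1fx (102) and the centromeric histone gene Cenpa (79). Of 29 histone chaperone genes 12 had one (41.4%, 23.5 to 61.1). Of all protein-coding genes 27.1% had one, a share inside the intervals of both lists. The strongest at chaperone genes were those of Rbbp7 (1402), Atrx (1306) and Nap1l3 (388), all on X, as is Nap1l2 (145). No share was computed for genes on X alone. The gene-end median of 93 given above covers autosomes only, so it gives no scale for strengths on X, that of Cstf2 included. Hjurp, the loader of CENP-A, had 362. Rbbp7, Atrx and the co-chaperone gene Dnajc9 also had one in the wild type list, with strengths of 80, 133 and 90. These 3 of 29 genes stand beside 1.99% of all protein-coding genes with a wild type hotspot. The lists were not tested against the background.

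**Figure D5:**
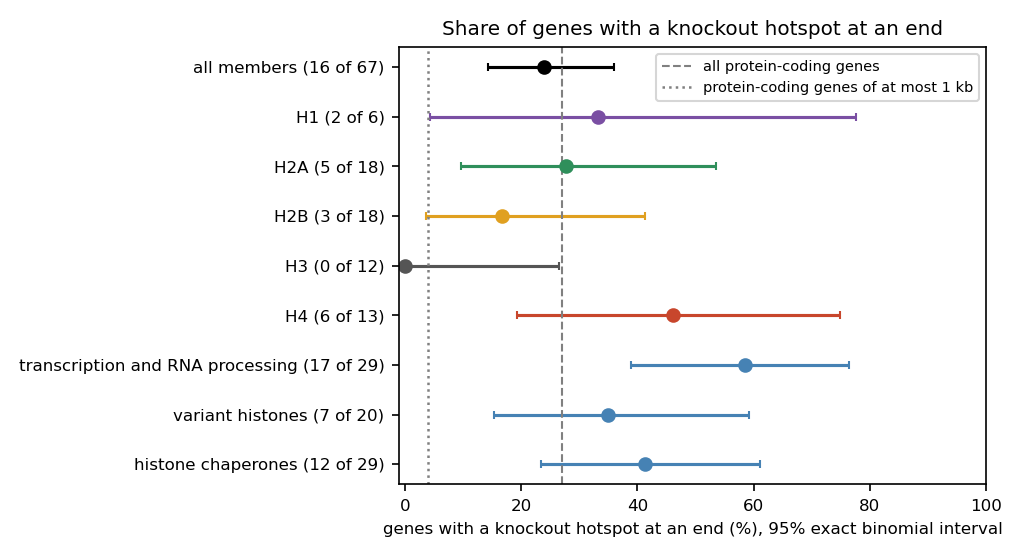
Percent of genes with a knockout hotspot at an end, with exact 95% binomial intervals, for all 67 histone genes, each class and the 3 related gene lists. The dashed line is the share of all protein-coding genes (27.1%) and the dotted line that of genes of at most 1 kb (4.02%); the interval of all histone genes spans the dashed line.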

How the data were processed

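DMC1-SSDS of testis was analysed from 1 hotspot list per genotype. The build is mm10, and the tools listed, with no version or role, are BWA, Bowtie2, MACS2 and CASAVA, per the submitters' processing notes. Chromosome Y is not in the lists. Per the file headers, each hotspot has a count of signal reads and a background, which the authors estimated and rounded, here treated as a score. The deposited strength is a signal, equal to count minus background in 100% of rows. The authors also deposited strength as a percent of its sum, and a rank score. The sources used here do not say how reads from near-identical copies were placed.

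Genes, start sites and upstream sequences came from RefSeq tables of GRCm38.p6, the assembly that mm10 is made from. The 67 members lie on chromosomes 3, 6, 11 and 13, and 3 pseudogenes with such names were not members. Hotspot positions are printed as listed, and whether they count from 0 or 1 is not stated. Scripts used Python 3.11.15, pandas 2.3.3, NumPy 2.4.6 and SciPy 1.17.1, and the assignment of hotspots to genes was tested on simulated data. Intervals are exact Clopper-Pearson for shares and exact Poisson for reads, at 95%, and cover counting error only. With 1 list per genotype no test between genotypes was possible. Alternatives were windows of 500 bp and 2 kb, overlap with the gene body, start sites alone, a strength of at least 100, a shorter knockout list, other flanks and other scalings. The genes named are all members with a hotspot, the testis members, the hotspots in the clusters and the strongest in their flanks, and members of the related lists picked for known roles. The chaperone list held the name Spt2, which matched only a synonym of another gene and was dropped. Members and lists were chosen with earlier results of these data known. The comparison by gene length, the search for near-identical copies and the GGTCCG element were added after the data had been seen. The H3K4me3 and input samples were not analysed here.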

Additional observations from a re-analysis of the deposited data

How the results depend on the processing

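The 16 histone genes with a knockout hotspot became 14 with a window of 500 bp, 20 with 2 kb, 18 by overlap with the gene body and 13 by start sites alone. They stayed 16 with a strength of at least 100 and with the knockout list reduced to the size of the wild type list. The 11 hotspots were 11 under each of these settings that was run for them. With a window of 2 kb, 1 histone gene had 1 wild type hotspot, and under the other settings 0 did. With a strength of at least 100, the chromosome 13 window had 8 wild type and 19 knockout hotspots, and the chromosome 3 window 6 and 7. With flanks of 250 kb, the chromosome 3 window had 4 and 6. The median log2 ratio of shared hotspots around chromosome 13 was -0.59 as deposited, -0.51 as a share of summed strength and -0.115 with flanks of 1 Mb. Around chromosome 3 it was -1.97, -1.89 and -1.53 in that order. Requiring an overlap of 50% of both hotspots left both medians as they were. The cause of these moves is the setting itself, which changes the hotspots counted or the scale. No paired analysis was possible because each genotype has a single list with no replicate columns. The calling threshold limits the wild type result: a hotspot below the threshold of the list would be missing from it.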

Other observations

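The chromosome 13 histone clusters are set among transfer RNA genes, and 2 of the 4 other knockout-only hotspots between the first and last histone gene lay at such genes. One of strength 59 (44.3 to 76.7) was centred 403 bp from n-TIaat7, an isoleucine tRNA gene, and one of 145 (121 to 172) was centred 14 bp from n-TSgct5, a serine tRNA gene. Of the 93 tRNA genes in the window, 2 (2.15%, exact 95% interval 0.262 to 7.55) had a knockout hotspot within 1 kb of an end, and 0 had a wild type hotspot. Over all chromosomes 52 of 408 tRNA genes (12.7%, 9.67 to 16.4) had a knockout hotspot there, on 43 hotspots, and 5 a wild type one. These counts were made after the hotspots had been seen, and neighbouring tRNA genes share hotspots.

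On chromosome 3 a knockout-only hotspot of strength 65 (49.6 to 83.4) was centred 33 bp from an end of Terc, the gene of the telomerase RNA. Of the 3 histone pseudogenes, Hist1h2aj was the closest to a wild type hotspot, at 1451 bp from the wild-type-only hotspot of strength 164 named above, and 13439 bp from the nearest knockout hotspot. Hist3h2bb on chromosome 11 was 7592 bp from a knockout hotspot of strength 80, and Hist1h2al, far from the clusters on chromosome 13, was 98992 bp from one of 120.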
